A study of Homo sapiens with 7 samples.

Results

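The 66 genes described here encode the SR proteins, the hnRNP proteins and core proteins of the spliceosome. They were taken by a rule on symbols, and the choice was made with earlier results of these data known. The rule takes every tested gene whose name starts with SRSF, HNRNP, SF3A or SF3B, SNRP or PRPF followed by the family's usual suffix. The genes make up 66 of the 10452 tested. They comprise 11 SR genes, 23 hnRNP genes, 9 genes for subunits of the SF3a and SF3b complexes, 11 SNRP genes for proteins of the small nuclear ribonucleoproteins (snRNPs) and 12 PRPF genes for pre-mRNA processing factors. The name rule also takes in HNRNPA3P1, a pseudogene, HNRNPU-AS1, an antisense RNA, and HNRNPA1L2, a close copy of HNRNPA1.

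RNA was sequenced from 7 lines of K562, a human leukemia line that carries the BCR::ABL1 fusion, with 1 library per line. Control lines were drug naive K562 and K562 grown with the DMSO vehicle. Resistant (DasR) lines were intermediates of a stepwise escalation of dasatinib, an inhibitor of the BCR::ABL1 kinase, grown in 10, 15 or 25 nM (early stage) or in 50 or 200 nM (late stage). The stages were set by the study from a clustering of these same libraries, so differences between stages are not independent of that choice. Each group pools lines that differ in treatment or dose, and the DasR lines share a history, so the p-values measure the spread between these lines and not between separate escalations. Libraries held 21007761 counts for drug naive and 24037893 for DMSO, 27808639, 27844799 and 20059656 for the 10, 15 and 25 nM lines, and 20827519 and 21588772 for the 50 and 200 nM lines. Levels are given in CPM, a gene's counts relative to its scaled library size, in that order of lines (drug naive then DMSO, and rising dose within each stage).

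Splicing removes introns from pre-mRNA. The spliceosome is built from U1, U2, U4, U5 and U6 snRNPs, each an RNA with a set of proteins: U1 reads the start of an intron, U2 with SF3a and SF3b reads the branch site, and the U4/U6.U5 tri-snRNP joins before catalysis. SR proteins bind mostly in exons and favor their inclusion, hnRNP proteins coat nascent RNA and often oppose it, and the balance between them is known to shape alternative splicing. Many SR and hnRNP genes also control themselves through exons that send the transcript to nonsense-mediated decay.

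Of the 66 genes, 65 could be placed on GRCh37, on 20 chromosomes, so the group is not a cluster in the genome. Promoter sequence of 4 genes is shown because these genes cover the range of responses: SRSF1 and SRSF3 were higher in all 5 DasR lines than in both controls, HNRNPLL was lower in all 5, and HNRNPA3 did not pass the test. Each comes from the 250 bases before the gene's start in RefSeq's promoter table (GRCh38.p14), found again base for base on GRCh37. GENCODE places transcript starts further upstream, so that exons of the gene itself cover 100 of these bases for SRSF1, 9 for SRSF3, 119 for HNRNPLL and 100 for HNRNPA3, and the HNRNPLL window lies wholly inside the gene as placed. Only the longest stretch outside these exons is printed, 5′ to 3′ on the gene's strand. Capitals mark CCAAT or its reverse complement ATTGG. The positions are chr17:56084708-56084857 (minus strand) for SRSF1, chr6:36561889-36562129 (plus) for SRSF3, chr2:38830179-38830309 (minus) for HNRNPLL and chr2:178077272-178077421 (plus) for HNRNPA3.
SRSF1: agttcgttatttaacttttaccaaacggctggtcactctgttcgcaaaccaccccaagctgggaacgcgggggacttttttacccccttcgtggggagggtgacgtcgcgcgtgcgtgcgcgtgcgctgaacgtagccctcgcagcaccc
SRSF3: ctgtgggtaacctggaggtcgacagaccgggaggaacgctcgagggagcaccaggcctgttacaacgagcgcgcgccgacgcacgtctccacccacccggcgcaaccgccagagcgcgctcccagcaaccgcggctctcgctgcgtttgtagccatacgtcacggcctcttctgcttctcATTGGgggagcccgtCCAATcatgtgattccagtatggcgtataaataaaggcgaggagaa
HNRNPLL: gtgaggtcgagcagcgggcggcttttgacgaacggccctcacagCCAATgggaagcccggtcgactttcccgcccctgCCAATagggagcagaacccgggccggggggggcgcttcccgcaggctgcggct
HNRNPA3: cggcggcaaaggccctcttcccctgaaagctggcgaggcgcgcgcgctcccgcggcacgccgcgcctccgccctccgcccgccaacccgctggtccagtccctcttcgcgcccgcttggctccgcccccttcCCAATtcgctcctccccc

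A whole window of 250 bases was matched for 57 of the 66 genes, and for 8339 of the genes tested. Counting both strands, CACGTG, the E-box letters that MYC and other factors bind, lay in 7 of the 57 (12.3%) and in 9.38% of the 8339. CCAAT lay in 26 (45.6%, against 35.99%), the GC box GGGCGG in 33 (57.9%, against 68.8%) and TATAAA in 7 (12.3%, against 4.82%). No motif is contained in another. By class, with no test, CACGTG lay in 6 of 20 hnRNP promoters (HNRNPA3, HNRNPD, HNRNPDL, HNRNPH2, HNRNPH3 and HNRNPM), in 1 of 8 SF3 promoters and in 0 of 10 SR, 0 of 10 SNRP and 0 of 9 PRPF promoters. The stretch printed for HNRNPA3 holds no CACGTG, and its match reaches into the 100 bases of the window that exons of the gene cover. CCAAT lay in 13 of 20 hnRNP, 6 of 9 PRPF, 4 of 10 SNRP, 2 of 10 SR and 1 of 8 SF3 promoters. CACGTG lay in 4 of the 33 matched promoters of genes that rose in the early stage and in 3 of the other 24, and CCAAT in 15 of 33 and 11 of 24. A match describes the letters in this window only.

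As a group these genes were higher in the DasR lines. Their share of all counts was 1.58% in drug naive and 1.71% in DMSO, and 2.04%, 1.97% and 2.07% at 10, 15 and 25 nM and 2.07% and 2.24% at 50 and 200 nM, so that every DasR line lay above both controls. The median log2 fold change was 0.36 in early stage lines and 0.42 in late stage lines, against 0.00 and -0.00 over all genes tested. By line it was 0.38, 0.30 and 0.37 from 10 to 25 nM, 0.37 at 50 nM and 0.44 at 200 nM above the mean of the controls. Both comparisons use the same control libraries.

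**Figure D1:**
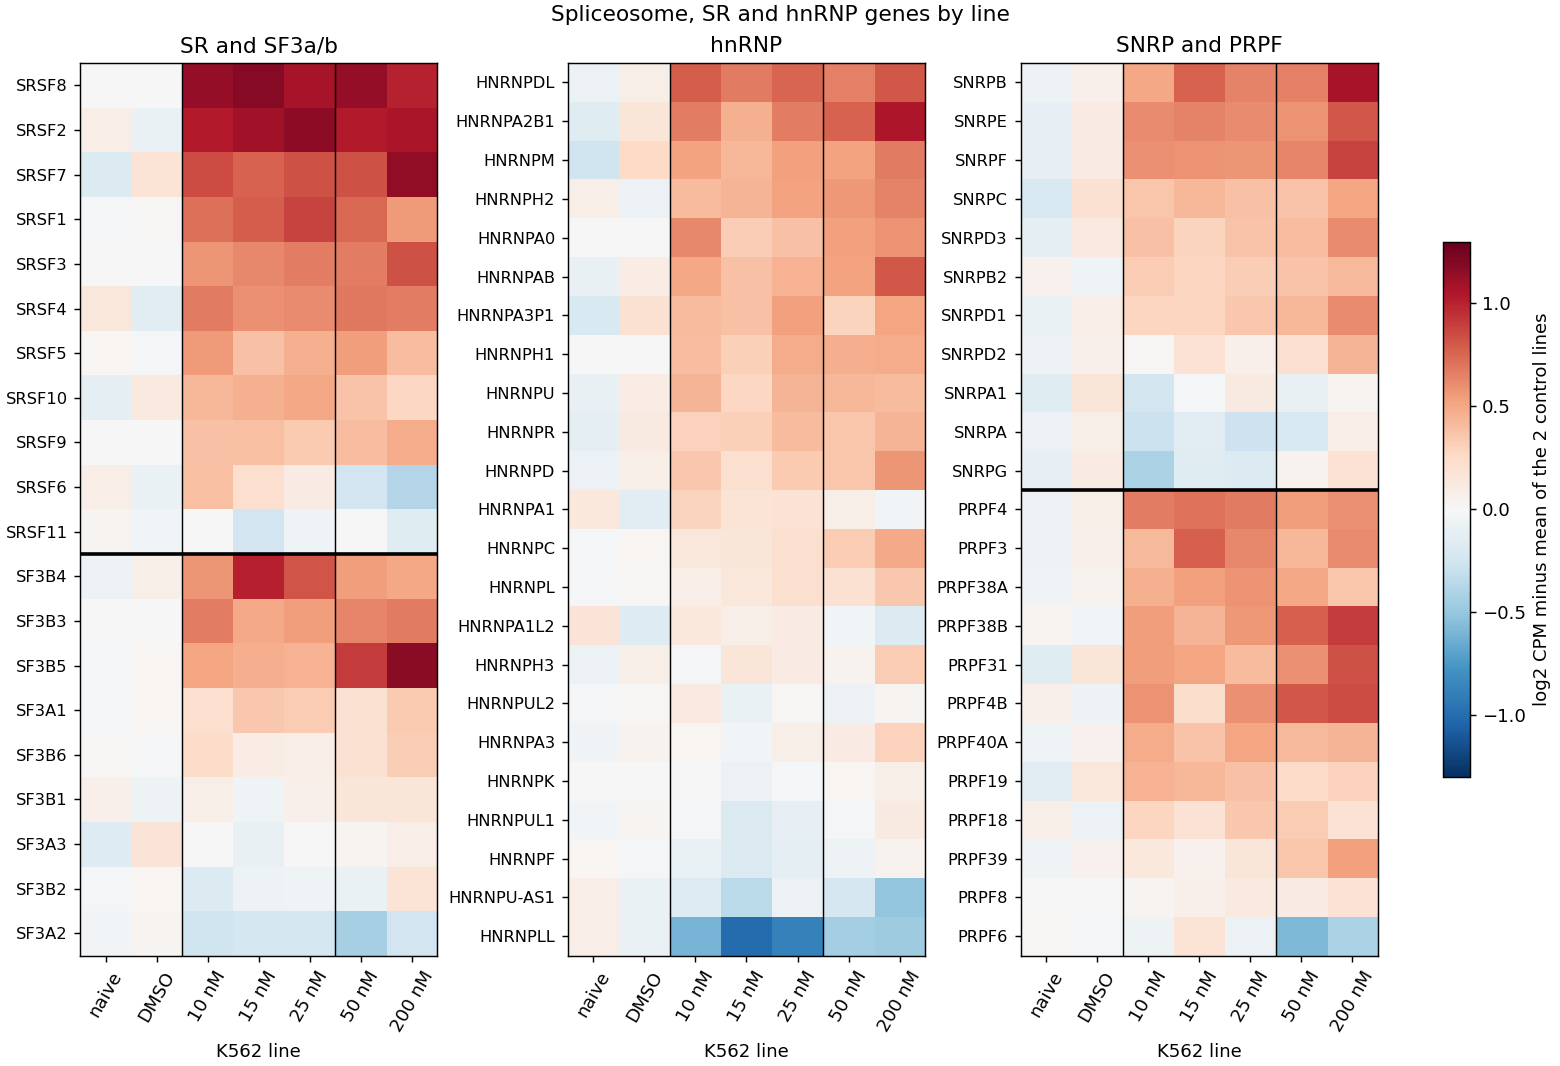
Each row is 1 of the 66 genes and each column 1 K562 line, with the color giving log2 CPM minus the mean of the control lines; black vertical lines part controls, early stage and late stage, and black horizontal lines part gene classes. The SR rows down to SRSF9 are red in all 5 DasR lines, most hnRNP rows from HNRNPA1 down are pale, and HNRNPLL is blue throughout the DasR lines.

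The test of each gene was edgeR's quasi-likelihood test over all 7 libraries, with p-values adjusted by the Benjamini-Hochberg method over the 10452 genes (FDR). Here "rose" and "fell" mean an FDR below 0.05, and calls past the study's stricter 0.005 are named as such. Paired changes are log2 fold changes against the controls, early stage first and late stage after it. In early stage lines 38 of the 66 genes rose, where 22.6% of all genes did, 1 fell (24.0% of all genes), and 27 did not pass. At 0.005 the counts were 13 higher (7.92% of all genes) and 1 lower (10.1%). In late stage lines 37 rose (16.2% of all genes) and 3 fell (17.6%), and at 0.005 the counts were 13 higher (3.42%) and 0 lower (4.56%). At an unadjusted p below 0.05, 42 genes were higher in the late stage (22.3% of all genes) and 5 lower (23.7%), and DESeq2 called 1 lower at 0.005 (1306 of all genes tested). All 5 DasR lines stood above both controls for 44 genes (24.4% of all genes) and below both for 2 (25.1%), HNRNPLL and SF3A2. The 44 include the pseudogene HNRNPA3P1, which reached the filter's minimum of 10 CPM in DasR lines only and so could be tested only where it was high; without it the count was 43 of 65.

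These counts lean on each library. Without the drug naive line, 21 genes rose in early stage lines and 22 in late stage lines (1272 and 686 of all genes tested), and at 0.005 leaving out 1 library gave 2 to 15 genes higher in the early stage and 0 to 6 in the late stage. Over the same 7 removals of 1 library the calls at 0.005 among all genes tested ranged from 66 to 965 higher in the early stage and from 16 to 234 in the late stage. SRSF8 and SRSF2 were the genes still past 0.005 in the early stage whichever library was left out, and 0 of the 13 late stage calls at 0.005 were kept in this way. With only the 2 groups compared in the fit, 1 gene was higher at 0.005 in the late stage (86 of all genes tested). At 0.05, 21 of 39 early stage calls and 21 of 40 late stage calls held in all 7 removals. No sign changed for any called gene.

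The SR class had the highest medians of the 5 classes. Of 11 SR genes 9 rose and 0 fell in the early stage, 6 of them past 0.005, with a median log2 fold change of 0.62. In the late stage 8 rose and 0 fell, 5 of them past 0.005, with a median of 0.65. The genes that did not pass in either stage were SRSF6 and SRSF11, and SRSF10 did not pass in the late stage.

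SRSF2 (SC35; chr17:74730197-74733415, minus strand) binds exonic enhancers and is one of the splicing factors mutated in myeloid disease. It stood at 208 and 184 CPM without drug, 398, 418 and 437 CPM at the early doses and 399.7 and 407 CPM at the late doses. The log2 fold change was 1.09 ± 0.09 (SE, FDR 0.000309) in early stage lines and 1.04 ± 0.10 (SE, FDR 0.000928) in late stage lines. SRSF8 (chr11:94800083-94804388, plus strand), a copy of SRSF2 that arose by retrotransposition, had 44.9 and 45.3 CPM without drug, 99.6, 103 and 94.6 CPM at the early doses and 99.3 and 90.1 CPM at the late doses. Its log2 fold change was 1.13 ± 0.09 (SE, FDR 0.000218) and 1.07 ± 0.09 (SE, FDR 0.000824). In both genes the DasR lines were about level with each other and at 2.06 to 2.20 times the controls in the fit, with no overlap of groups. The ratio of SRSF2 to SRSF8 CPM, examined after the values were seen, ranged from 3.998 to 4.63 over the 7 lines. The transcripts of SRSF2 and SRSF8 share no identical stretch of 75 bases, the read length. Of the exon bases of SRSF2, 27.7% lie opposite exons of MFSD11, and since no source used here states the strand setting of the counting, reads of both strands cannot be told apart there. Within 2 Mb of SRSF2 lie 62 tested genes, of which 19 rose and 5 fell in the early stage (median 0.23). In the late stage 5 of them rose and 10 fell (median 0.02), and their part in its change was not tested.

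SRSF1, the founding SR protein, stood at 377 and 384 CPM without drug, 624, 654 and 698 CPM at the early doses and 638 and 559 CPM at the late doses. It rose by 0.79 ± 0.10 (SE, FDR 0.00104) in early stage lines and 0.65 ± 0.10 (SE, FDR 0.00444) in late stage lines, and its 200 nM value was the lowest of the DasR lines. Within 2 Mb of SRSF1 lie 28 tested genes, of which 12 rose and 5 fell in the early stage (median 0.31). In the late stage 9 of them rose and 2 fell (median 0.14), and their part in its change was not tested. SRSF7, an SR protein with a zinc knuckle, stood at 77.8 and 98.8 CPM without drug, 157, 149 and 156 CPM at the early doses and 156 and 194 CPM at the late doses, with its highest value at 200 nM. Its log2 fold change was 0.80 ± 0.14 (SE, FDR 0.00373) and 0.99 ± 0.15 (SE, FDR 0.00385). SRSF3, a small SR protein that also acts in mRNA export and 3′ end choice, stood at 235 and 233 CPM without drug, 349, 361 and 371 CPM at the early doses and 371 and 417 CPM at the late doses. It rose by 0.62 ± 0.09 (SE, FDR 0.00169) and 0.75 ± 0.09 (SE, FDR 0.00197). For these 3 genes the lowest DasR line lay above the higher control. SRSF4 rose by 0.62 and 0.67 on the log2 scale, SRSF5 by 0.47 and 0.48 and SRSF9 by 0.37 and 0.45, while SRSF10, which represses splicing when dephosphorylated, rose by 0.46 in early stage lines and had 0.31 ± 0.11 (SE, FDR 0.0564) in late stage lines. SRSF11 had -0.10 ± 0.10 (SE, FDR 0.433) in the early stage. SRSF9 has 43.6% of its exon bases opposite GATC. Of the annotated transcripts 6 of 12 for SRSF7 and 2 of 8 for SRSF3 are marked as targets of nonsense-mediated decay, and counts per gene do not separate these from coding transcripts.

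**Figure D2:**
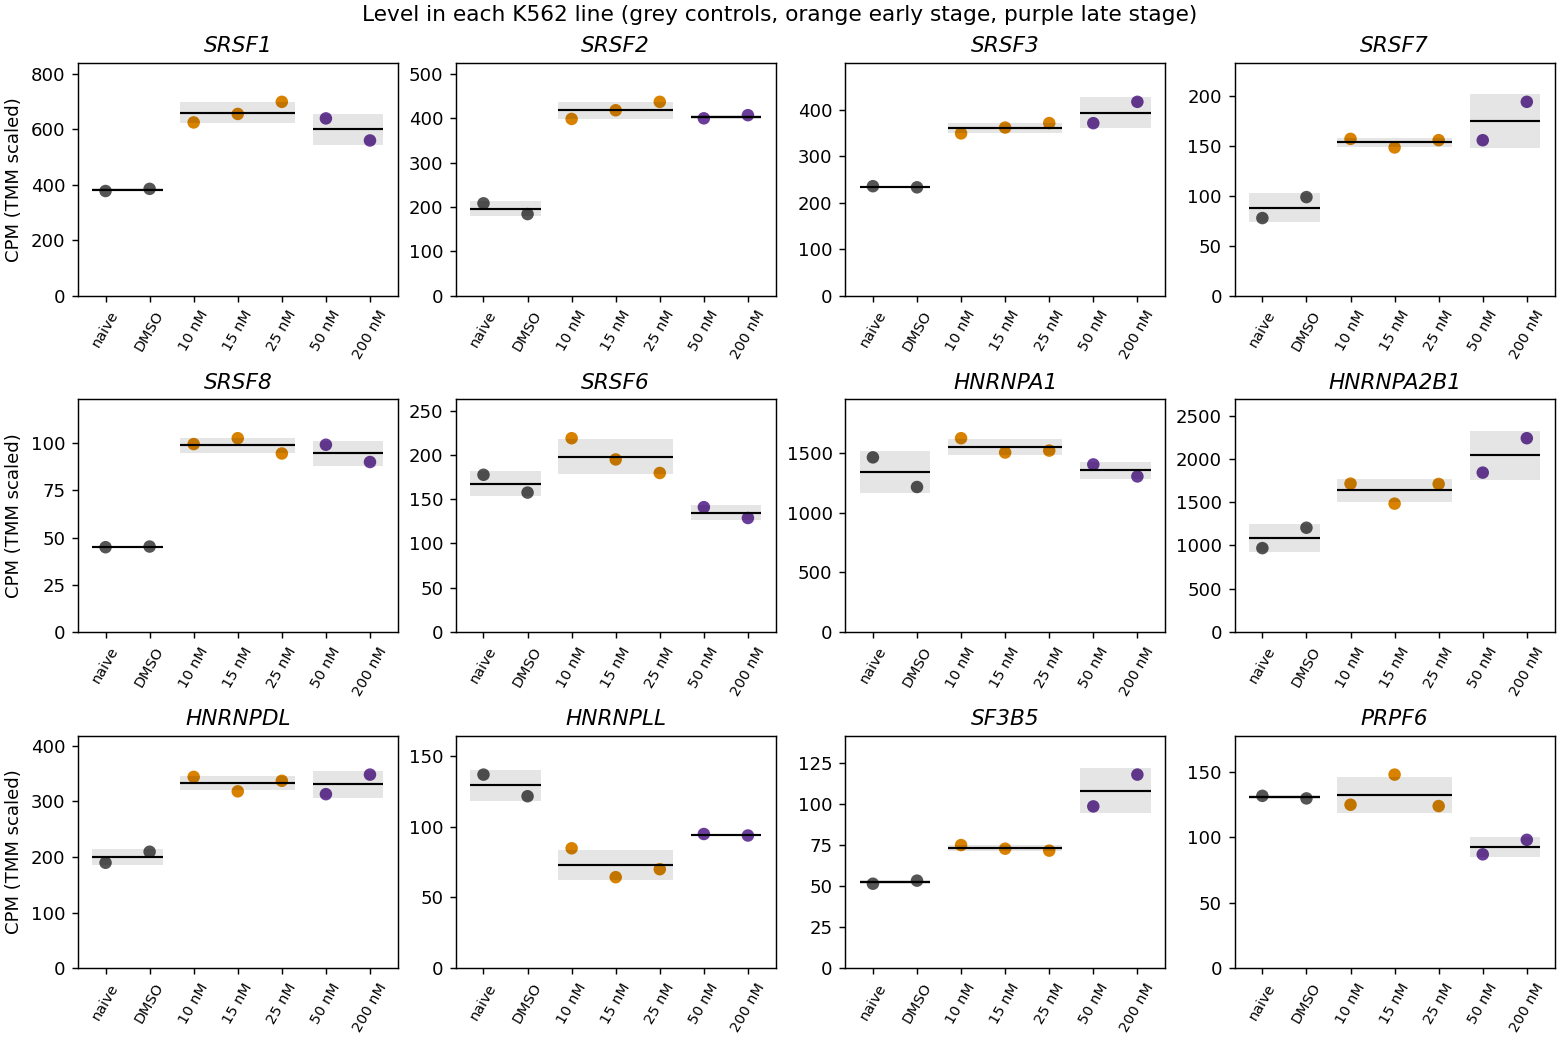
Points give TMM-scaled CPM in each line for 12 of the genes, with a line at the mean and a grey band of 1 SD for controls, early stage and late stage; each vertical axis starts at 0. SRSF1, SRSF2, SRSF3, SRSF7, SRSF8 and HNRNPDL step up between the controls and the 10 nM line, HNRNPLL steps down, and SRSF6 and PRPF6 are lowest in the late stage lines.

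The hnRNP genes were mixed. Of 23, 10 rose, 1 fell and 12 did not pass in the early stage (median 0.21), and 11 rose, 1 fell and 11 did not pass in the late stage (median 0.39). The late stage median is the value of the pseudogene HNRNPA3P1, which passed the filter only through DasR lines and was not among the calls. The other 22 genes had medians of 0.19 and 0.34. HNRNPDL, a relative of HNRNPD that binds AU-rich RNA, stood at 189.6 and 209 CPM without drug, 344, 318 and 337 CPM at the early doses and 313 and 348 CPM at the late doses. It rose by 0.74 ± 0.09 (SE, FDR 0.00121) and 0.73 ± 0.10 (SE, FDR 0.00286), the only hnRNP gene past 0.005 upward in the early stage.

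HNRNPA1 and HNRNPA2B1 encode closely related proteins that bind exonic silencers, and per kilobase of gene length they had the highest levels of the 66 genes, at 744 and 431 CPM per kb over all lines. HNRNPA1 stood at 1463 and 1215 CPM without drug, 1624, 1504 and 1519.9 CPM at the early doses and 1404 and 1303 CPM at the late doses. The early lines lay above both controls and the late lines between them, and the log2 fold change was 0.21 ± 0.10 (SE, FDR 0.123) in early stage lines and 0.02 ± 0.11 (SE, FDR 0.924) in late stage lines. HNRNPA2B1 stood at 969 and 1205 CPM without drug, 1715, 1483 and 1711 CPM at the early doses and 1842 and 2239.7 CPM at the late doses. It rose by 0.59 ± 0.13 (SE, FDR 0.0108) and 0.91 ± 0.15 (SE, FDR 0.00484), and its call in the early stage held in 6 of 7 removals (FDR 0.0778 without the drug naive line). Of 10 tested genes within 2 Mb of HNRNPA2B1, 4 rose and 2 fell in the early stage, with a median of 0.08, and 6 rose and 0 fell in the late stage, with a median of 0.54, and their part in its change was not tested. The ratio of HNRNPA2B1 to HNRNPA1 CPM, examined after the values were seen, was 0.662 and 0.992 in drug naive and DMSO, 1.06, 0.986 and 1.13 at 10, 15 and 25 nM and 1.31 and 1.72 at 50 and 200 nM. The DMSO line thus lay level with the 15 nM line, and both late stage lines lay above all others. Of the 75-base windows of HNRNPA1L2 transcripts, 35.9% are also in HNRNPA1, so the values of HNRNPA1L2 are uncertain. The ratio of HNRNPA1 to HNRNPA1L2 CPM was 15.9 to 18.0 over the 7 lines.

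HNRNPLL, known for directing the exon choice of CD45 in lymphocytes, moved the other way. It stood at 137 and 121 CPM without drug, 84.7, 64.3 and 70.0 CPM at the early doses and 94.8 and 93.8 CPM at the late doses, so that each DasR line was below both controls and the 15 nM line was lowest. It fell by 0.82 ± 0.13 (SE, FDR 0.00253) in the early stage, the one gene of the 66 that fell there. The late stage fold change was -0.45 ± 0.14 (SE, FDR 0.0427), and that call held in 2 of 7 removals (FDR 0.193 without the drug naive line).

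HNRNPC, which binds uridine tracts, had 0.17 ± 0.08 (SE, FDR 0.122) in the early stage and rose by 0.41 ± 0.09 (SE, FDR 0.0132) in the late stage. HNRNPU, a nuclear scaffold protein, rose by 0.39 ± 0.09 (SE, FDR 0.0139) and 0.42 ± 0.10 (SE, FDR 0.0199). Of the exon bases of HNRNPU, 15.6% lie opposite exons of COX20, so its counts may hold reads of both strands. The HNRNPC call held in 5 of 7 removals and the HNRNPU calls in 6 and 4, with FDRs of 0.0689, 0.0930 and 0.107 without the drug naive line. HNRNPH1 and HNRNPH2, which bind runs of G, rose by 0.40 and 0.46 in the early stage and by 0.48 and 0.60 in the late stage, while HNRNPF of the same family had -0.13 and -0.01 and did not pass. HNRNPK, which binds C-rich RNA, ranged from 792 to 876.5 CPM over the 7 lines, with a log2 fold change of -0.03 ± 0.07 (SE, FDR 0.733) in the early stage. HNRNPA3, whose promoter is shown above, had 0.02 and 0.20, and 53.6% of its exon bases lie opposite exons of NFE2L2, so its counts too may hold reads of both strands. HNRNPU-AS1, the antisense RNA, had -0.19 and -0.36 (FDR 0.234 and 0.0788).

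The SF3a and SF3b genes divided within the complex. Of 9, 4 rose and 0 fell in the early stage (median 0.14), and 3 rose and 1 fell in the late stage (median 0.26). SF3B1, the large subunit that holds the branch site and a frequent target of mutation in blood disease, stood at 375 and 344 CPM without drug, 378, 345 and 376 CPM at the early doses and 400.4 and 401 CPM at the late doses. Its log2 fold change was 0.03 ± 0.08 (SE, FDR 0.809) and 0.16 ± 0.09 (SE, FDR 0.223), and neither passed. SF3B5, a small subunit at chr6:144416021-144416710 (minus strand), stood at 51.5 and 53.4 CPM without drug, 75.03, 72.8 and 71.6 CPM at the early doses and 98.6 and 118 CPM at the late doses. It rose by 0.48 ± 0.10 (SE, FDR 0.00728) and 1.05 ± 0.11 (SE, FDR 0.00122), the largest late stage change of the complex, and its early stage call held in 6 of 7 removals (FDR 0.0502 without the drug naive line). SF3B3, a scaffold of propeller folds, stood at 306 and 302 CPM without drug, 484, 429 and 444 CPM at the early doses and 471 and 487 CPM at the late doses. It rose by 0.57 ± 0.08 (SE, FDR 0.00222) and 0.65 ± 0.09 (SE, FDR 0.00302). SF3B4, which touches RNA near the branch site, rose by 0.81 ± 0.14 (SE, FDR 0.00353) and 0.52 ± 0.15 (SE, FDR 0.0326), with its highest value, 77.8 CPM, at 15 nM. That late stage call held in 2 of 7 removals (FDR 0.153 without the drug naive line). In SF3a, SF3A1 rose in the early stage by 0.30 ± 0.09 (SE, FDR 0.0256), a call that held in 3 of 7 removals (FDR 0.115 without the drug naive line), and SF3A2 fell in the late stage by 0.33 ± 0.09 (SE, FDR 0.0304), a call that also held in 3 (FDR 0.111 without the 50 nM line).

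Among the 11 SNRP genes 7 rose and 0 fell in either stage, with medians of 0.31 and 0.43. The 7 genes of the Sm ring, the protein ring shared by most snRNPs, had medians of 0.34 and 0.52, and the 4 genes particular by name to U1 or U2 (SNRPA, SNRPC, SNRPA1 and SNRPB2) had 0.13 and 0.18. SNRPB, which encodes the Sm ring proteins B and B′, stood at 134 and 147 CPM without drug, 199, 239 and 219.5 CPM at the early doses and 221 and 294 CPM at the late doses. It rose by 0.64 ± 0.14 (SE, FDR 0.00983) and 0.88 ± 0.16 (SE, FDR 0.00659), and the early stage call held in 6 of 7 removals (FDR 0.0709 without the drug naive line). SNRPG, another ring subunit, stood at 95.7 and 111 CPM without drug, 77.5, 92.3 and 90.9 CPM at the early doses and 106 and 117 CPM at the late doses. Its log2 fold change was -0.25 ± 0.11 (SE, FDR 0.111) and 0.11 ± 0.13 (SE, FDR 0.519). The ratio of SNRPB to SNRPG CPM, examined after the values were seen, was 1.40 in drug naive, 1.32 in DMSO and 2.08 to 2.59 in the DasR lines. SNRPE rose by 0.62 ± 0.10 (SE, FDR 0.00344) and 0.69 ± 0.11 (SE, FDR 0.00498) and SNRPF by 0.58 ± 0.11 (SE, FDR 0.00517) and 0.76 ± 0.12 (SE, FDR 0.00433). SNRPD1 rose by 0.30 ± 0.10 (SE, FDR 0.0374) and 0.52 ± 0.10 (SE, FDR 0.00986), and the calls held in 3 and 6 of 7 removals (FDR 0.199 and 0.0609 without the drug naive line). SNRPA, a U1 protein, had -0.23 ± 0.11 (SE, FDR 0.122) in the early stage. SNRPB has 33 tested genes within 2 Mb, of which 26 rose and 1 fell in the early stage, with a median of 0.69, and 24 rose and 1 fell in the late stage, with a median of 0.55. Their part in the change of SNRPB was not tested.

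Of the 12 PRPF genes 8 rose and 0 fell in the early stage (median 0.47), and 8 rose and 1 fell in the late stage (median 0.44). PRPF3, PRPF4 and PRPF31 bind the U4/U6 snRNP. PRPF4 stood at 45.3 and 50.6 CPM without drug, 75.9, 78.2 and 76.4 CPM at the early doses and 70.0 and 72.1 CPM at the late doses. It rose by 0.68 ± 0.09 (SE, FDR 0.00124) and 0.57 ± 0.09 (SE, FDR 0.00515). PRPF31 rose by 0.48 ± 0.12 (SE, FDR 0.0175) and 0.70 ± 0.14 (SE, FDR 0.00883), and PRPF31 has 22.0% of its exon bases opposite PRPF31-AS1. PRPF4B, a kinase of the tri-snRNP, rose by 0.48 ± 0.13 (SE, FDR 0.0192) and 0.83 ± 0.14 (SE, FDR 0.00538). The early stage call of PRPF31 held in 6 of 7 removals (FDR 0.106 without the drug naive line) and that of PRPF4B in 3 (FDR 0.102 without the DMSO line). PRPF38B stood at 93.3 and 88.6 CPM without drug, 132, 124 and 134 CPM at the early doses and 156 and 171 CPM at the late doses, with each late line above each early line and each early line above both controls. It rose by 0.51 ± 0.09 (SE, FDR 0.00349) and 0.85 ± 0.09 (SE, FDR 0.00142). PRPF8, the catalytic center's scaffold and, per gene length, the highest of the class at 106 CPM per kb, ranged from 730.0 to 834 CPM and had 0.08 ± 0.08 (SE, FDR 0.437) and 0.15 ± 0.08 (SE, FDR 0.209). PRPF19, a ubiquitin ligase, rose by 0.41 ± 0.10 (SE, FDR 0.0157) and had 0.26 ± 0.11 (SE, FDR 0.113) in the late stage. The early call held in 6 of 7 removals (FDR 0.0833 without the drug naive line). The lowest levels per gene length among the 66 genes were those of HNRNPA3P1 (3.23 CPM per kb), PRPF18 (14.2) and PRPF39 (15.7).

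**Figure D3:**
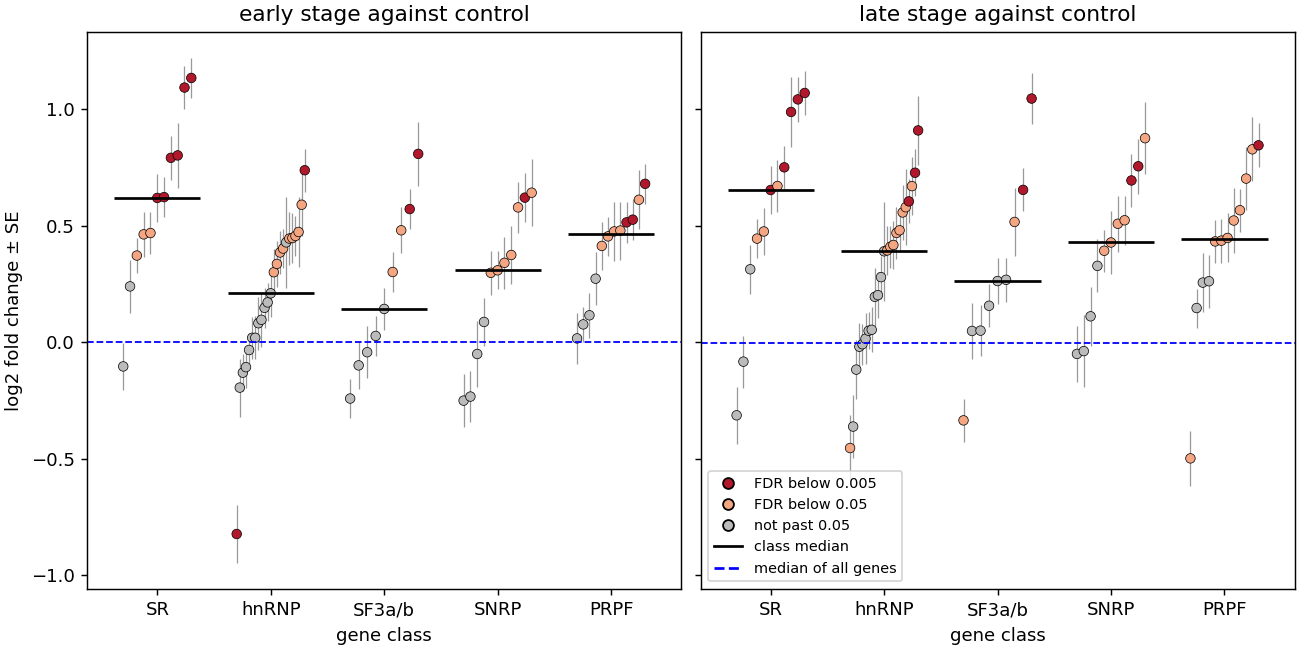
Points are the 66 genes by class, with the log2 fold change against the controls and its SE on the vertical axis; dark red marks an FDR below 0.005, pale red below 0.05 and grey neither, black bars are class medians and the blue dashed line is the median of all genes tested. The SR class has the highest median in both stages (0.62 and 0.65), and the same 2 control libraries stand behind both panels.

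Late and early stage lines were then compared with each other. Of the 66 genes 2 were higher in the late stage (6.60% of all genes) and 2 lower (6.10%), and the median log2 difference was 0.08. Both late lines stood above all early lines for 24 genes (26.4% of all genes) and below them for 8 (26.9%). SRSF6 (chr20:42086533-42094686, plus strand), an SR protein, stood at 178 and 158 CPM without drug, 219, 195 and 179.7 CPM at the early doses and 141 and 129 CPM at the late doses. The log2 difference of late from early stage was -0.55 ± 0.11 (SE, FDR 0.0269), and against the controls it had 0.24 ± 0.11 (SE, FDR 0.118) in early stage lines and -0.31 ± 0.12 (SE, FDR 0.0863) in late stage lines. PRPF6 (chr20:62612485-62664453, plus strand), which bridges the parts of the tri-snRNP, stood at 132 and 129.9 CPM without drug, 125, 148 and 124 CPM at the early doses and 87.1 and 98.2 CPM at the late doses. The log2 difference of late from early stage was -0.51 ± 0.11 (SE, FDR 0.0293), and both late lines lay below every other line. Against the controls it fell by 0.50 ± 0.12 (SE, FDR 0.0182) in the late stage, a call that held in 4 of 7 removals (FDR 0.0789 without the drug naive line). SF3B5 was higher in the late stage by 0.57 ± 0.10 (SE, FDR 0.0194) and PRPF38B by 0.33 ± 0.08 (SE, FDR 0.0465). Without the 200 nM line none of the 4 passed (FDR 0.150, 0.0985, 0.0982 and 0.236 in that order), nor did any other of the genes tested. Over the 7 removals of 1 library, SRSF6 passed in 5, SF3B5 in 4, and PRPF6 and PRPF38B in 1 each.

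SRSF6 and PRPF6 are both on chromosome 20, and the genes around each were lower too. Of 15 tested genes within 2 Mb of SRSF6, 0 were higher in the late stage and 8 passed as lower, with a median of -0.58. Of 36 within 2 Mb of PRPF6, 17 passed as lower and 1 as higher, with a median of -0.52. Of 13 near SF3B5, 9 were higher, 2 of them past the test, and the median was 0.29, while the 30 near PRPF38B had a median of -0.05. The difference of SRSF6 and of PRPF6 was thus about the median of its surroundings; the part of the surroundings in either result was not tested.

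**Figure D4:**
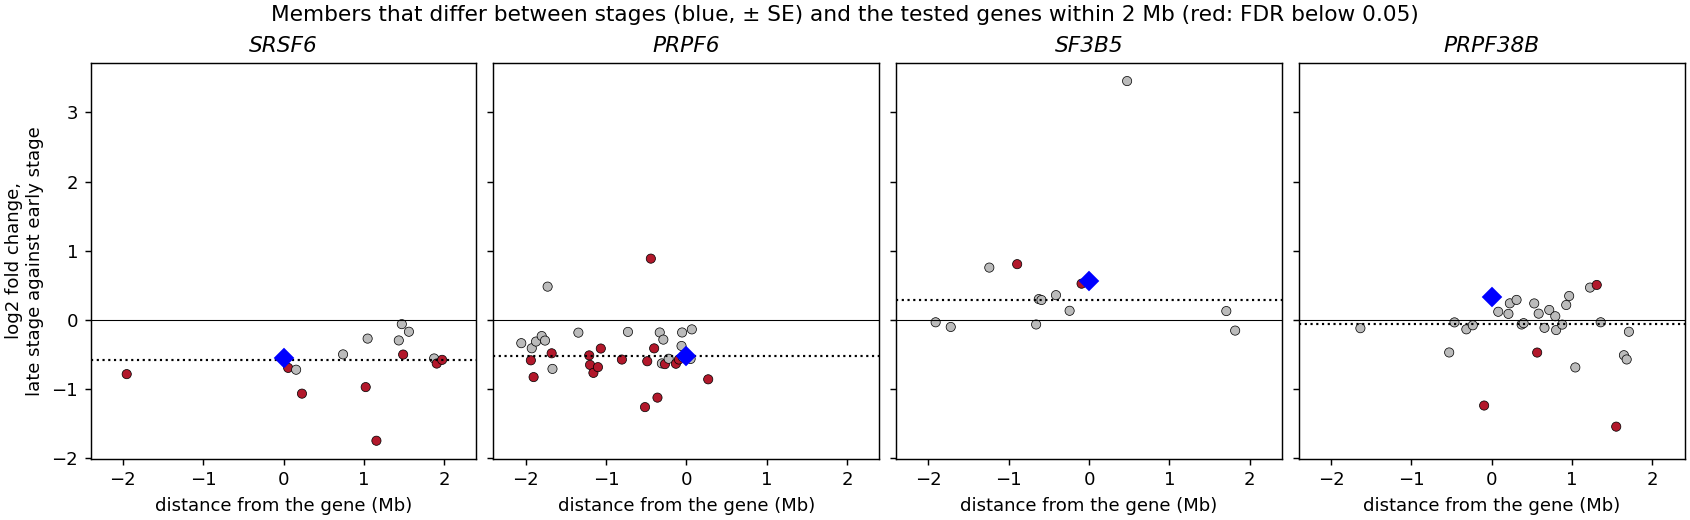
Each panel is 1 gene whose level differed between stages (blue diamond, with its SE) and the tested genes within 2 Mb; the horizontal axis is the distance between gene midpoints and the vertical axis the log2 fold change of late against early stage, with red for an FDR below 0.05 and a dotted line at the neighbors' median. Almost all points around SRSF6 and PRPF6 lie below 0, those around PRPF38B lie on both sides.

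Differences between lines of one group, which have no test, set the scale of these changes. DMSO stood above drug naive for 44 of the 66 genes, with a median log2 difference of 0.06 (0.01 over all genes), and for 10 of 11 SNRP genes, with a median of 0.21. HNRNPM, which binds G and U rich RNA, differed most, with 255 CPM in drug naive and 363 in DMSO, and rose by 0.47 ± 0.15 (SE, FDR 0.0353) in the early stage, a call that held in 3 of 7 removals (FDR 0.148 without the drug naive line). SNRPC, a U1 protein at the start of the intron, had 132 and 173 CPM in the same lines, and the pseudogene HNRNPA3P1 6.77 and 8.89. The 200 nM line stood above the 50 nM line for 51 of 66 genes, with a median of 0.12 (-0.00 over all genes), and for 11 of 11 SNRP genes but 4 of 11 SR genes. SNRPB, SRSF7 and HNRNPH3 were higher at 200 nM by 0.41, 0.32 and 0.29 on the log2 scale, and HNRNPU-AS1, SRSF1 and SRSF11 had log2 differences of -0.29, -0.19 and -0.15.

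The label calls the cells erythroblasts. All 12 erythroid markers examined passed the filter, and their summed level was 4250.3 and 3489.5 CPM in drug naive and DMSO, 10268, 11558 and 8728 at 10, 15 and 25 nM and 6028 and 4647 at 50 and 200 nM. Thus 10 of 12 rose in the early stage (median 1.15), among them HBG1, TFRC and EPOR by 1.24, 1.13 and 0.99, and 1 of 12 rose in the late stage (median 0.38). Of the 66 splicing genes, 38 rose in early stage lines and 37 in late stage lines. The shares of all genes that rose were 22.6% and 16.2%. HBG2 or HBZ was the most abundant marker in every line. Of 12 markers of other cell types, 7 did not pass the filter, and MS4A1 and MPO had at most 3 counts in any line. The summed level of the 5 tested was 275 and 207 CPM in drug naive and DMSO, 229.7, 137 and 162 at 10, 15 and 25 nM and 243 and 259 at 50 and 200 nM, with KRT19, LYZ and EPCAM the highest. Of these 5, CD3D and PECAM1 passed the filter only through the late stage lines, so their late stage changes are not counted. Of the other 3, 0 rose and 1 fell in either stage (medians -0.19 and -0.41). KRT19 fell by 1.04 and 0.73 on the log2 scale. LYZ had 0.23 in the early and 0.99 in the late stage (FDR 0.743 and 0.215), and EPCAM -0.19 and -0.41 (FDR 0.272 and 0.0681). CD3D stood at 17.0 and 8.18 CPM in drug naive and DMSO, 3.66, 2.75 and 8.59 at 10, 15 and 25 nM and 23.0 and 29.7 at 50 and 200 nM. PECAM1 stood at 5.37 and 4.47 CPM, then 1.65, 0.109 and 4.39 and then 12.2 and 10.9 in the same order. The part of either list in the splicing genes' results was not tested, and in bulk RNA fewer cells of a type and less RNA per cell cannot be told apart.

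Genes of the splicing pathway outside the name rule were examined in lists by role, each given with its counts and its median beside the all-gene medians of 0.00 and -0.00. Of all genes 22.6% rose and 24.0% fell in the early stage and 16.2% and 17.6% in the late stage, and each count is to be set against these shares. Among 14 further U1 and U2 proteins 11 rose and 0 fell in both stages (medians 0.41 and 0.49). They included U2AF1, which reads the end of the intron (0.88 and 0.65), the helicase DDX46 (0.75 and 0.89) and LUC7L2 of U1 (0.62 and 0.49). Of 12 further tri-snRNP proteins 6 rose and 0 fell in the early stage (median 0.36) and 4 rose and 0 fell in the late stage (median 0.27), among them the helicase DDX23 (0.80 and 0.92), the GTPase EFTUD2 (0.62 and 0.68) and SNU13 (0.47 and 0.63). Of 14 genes that assemble snRNPs, the SMN complex and methylosome, 8 rose and 1 fell in the early stage (median 0.51) and 8 rose and 0 fell in the late stage (median 0.45). They include GEMIN6, which reached 10 CPM in DasR lines only; of the other 13, 7 rose and 1 fell, then 7 rose and 0 fell (medians 0.51 and 0.36). GEMIN5, which selects the snRNA, rose from a control mean of 51.5 CPM to 128 and 110.3 CPM (1.32 and 1.10 on the log2 scale), with DDX20 at 0.71 and 0.78 and GEMIN4 at 0.56 and 0.56.

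The list of LSM genes holds LSM2 to LSM8 of the ring around U6, LSM1 of the related ring in mRNA decay, and NAA38, an acetyltransferase subunit with an LSM fold. It had 5 of 9 genes higher and 1 lower in the early stage (median 0.29) and 3 and 1 in the late stage (median 0.32). NAA38 passed the filter only with the help of DasR lines, and it was not among the calls. LSM5 rose by 0.30 and 0.56, LSM1 rose by 0.62 in the early stage and had 0.32 (FDR 0.155) in the late stage, and LSM8 fell by 0.37 and 0.47. The lists of later steps follow. Of 24 genes of the PRP19 complex and the catalytic helicases 5 rose and 5 fell in the early stage (20.8% each, near the shares of all genes; median -0.00) and 4 rose and 1 fell in the late stage (16.7% and 4.17%; median -0.01). Of its single genes, the helicase DHX15 rose by 0.71 and 0.80, SYF2 fell by 0.71 and 0.70, and PLRG1 fell by 0.76 in the early stage and had -0.34 (FDR 0.0727) in the late stage. Of 18 genes of the exon junction and export (TREX) complexes 7 rose and 2 fell, then 6 rose and 1 fell (medians 0.11 and 0.21). RNPS1 rose by 0.66 and 0.74 and ALYREF by 0.76 and 0.68, while CASC3 fell by 0.74 and 0.61.

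Of the 7 kinases that phosphorylate SR proteins 2 rose and 1 fell in the early stage (median 0.12) and 1 rose and 0 fell in the late stage (median 0.17). SRPK1 rose by 0.34 and 0.41, CLK4 rose by 0.68 in the early stage and had 0.27 (FDR 0.327) in the late stage, and SRPK2 fell by 0.36 in the early stage and had -0.21 (FDR 0.194) in the late stage. The minor spliceosome, which removes a rare class of introns, had 1 of 8 tested genes higher and 0 lower in the early stage (median -0.09) and 1 and 1 in the late stage (median -0.06). SNRNP25 rose by 0.95 and 0.75, whereas SNRNP48 had -0.22 and 0.01 and ZCRB1 -0.18 and -0.22, none of which passed. Of 35 other splicing regulators 9 rose and 8 fell (25.7% and 22.9%), then 9 rose and 7 fell (25.7% and 20.0%), with medians of 0.09 and 0.05, so that the early stage shares were near those of all genes. They include MBNL3, which reached 10 CPM in DasR lines only and was not among the calls. The other 34 had medians of 0.08 and 0.04. TRA2B, an SR-like activator, rose by 0.77 and 0.82, while MBNL2, of the muscleblind family, fell by 1.71 and 0.84 and TAF15 by 1.10 and 0.88. Of 10 genes of nonsense-mediated decay 4 rose and 0 fell in the early stage (median 0.27) and 2 rose and 1 fell in the late stage (median 0.07). SMG8 rose by 1.35 and 0.76 and the helicase UPF1 by 0.34 and 0.46.

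Genes of the same families that the filter removed were at low counts. SNRPN, a close relative of SNRPB, is listed at 0 in all 7 lines, and SRSF12 had 0 to 6 counts. How reads shared between genes were counted is not given, so the 0 of SNRPN does not show that it was unexpressed. PRPF40B, a U1-associated factor, had 155 and 203 counts in drug naive and DMSO and 68 to 101 counts in the DasR lines. Every DasR line thus lay below both controls in raw counts, but the gene was not tested. Of the genes tested, 25.1% had all DasR lines below both controls in scaled levels. HNRNPCL1 had 48 to 107 counts and HNRNPCL2 33 to 63 counts, and 6 pseudogenes had at most 114 counts in any line.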

How the data were processed

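RNA of 7 K562 lines was depleted of ribosomal RNA, prepared with a directional kit and sequenced as 75-base read pairs. Per the methods and labels, the authors used STAR on hg19 and counted reads per gene with featureCounts; versions, annotation, strand setting and treatment of shared reads are not given in the sources used here. The deposited counts are unnormalized, for 25702 gene IDs. The deposited tables also hold the authors' own log2 fold changes, mean log2 CPM values, p-values and FDR values, none of which was used; their symbols, chromosomes and gene lengths (bases) were. All 7 columns of counts were used.

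The filter was 10 CPM or more in 2 or more libraries, which 10452 genes passed. After TMM scaling, edgeR 4.0.16 in R 4.3.3 fitted the quasi-likelihood model (glmQLFit, then glmQLFTest), with 1 coefficient per group (2 control, 3 early stage, 2 late stage lines) and Benjamini-Hochberg adjustment over all genes tested. Lines of a group varied by 0.161 as a biological coefficient of variation (common dispersion 0.0260). CPM values are TMM scaled, SE is the log2 fold change divided by the square root of F, and 1 count was 0.0359 to 0.0499 CPM before scaling. The fit was tested on simulated data. Calls were made at an FDR of 0.005, as in the study, and 0.05. DESeq2 1.42.0, limma voom (limma 3.58.1), other scalings, filters and thresholds and the removal of each library were alternatives. Positions, opposite-strand exons and shared 75-base windows came from GENCODE on GRCh37, the same build as hg19, and promoters from RefSeq.

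The genes, their classes and the pathway lists were chosen with earlier results of these data known. Genes named are those with the smallest p in each comparison, a list by role, the extremes of level per length and of line differences, and 3 of each pathway list, of which 1 gene is not reported here; further members were named after their values were seen, to complete a class.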

Additional observations from a re-analysis of the deposited data

Results flagged for a closer look

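Late and early stage lines differed, by the test of the difference itself (edgeR's quasi-likelihood test), for 4 of the 66 genes. In each direction 3.03% of the 66 passed, where 6.60% of all genes were higher and 6.10% lower. The stages themselves were set by the study from a clustering of these same libraries. PRPF38B was higher in the late stage by 0.33 and SF3B5 by 0.57 on the log2 scale, while SRSF6 had -0.55 and PRPF6 -0.51. All 4 calls were lost when the 200 nM line was left out, and so were those of all other genes tested (0 higher and 0 lower of 10452 at an FDR of 0.05). Other removals ended calls as well: of 7 removals of 1 library, SRSF6 passed in 5, SF3B5 in 4, and PRPF38B and PRPF6 in 1 each. With only the 2 groups compared in the fit, PRPF38B (FDR 0.0657) and PRPF6 (FDR 0.0548) did not pass. Tested genes within 2 Mb had medians of -0.58 around SRSF6 and -0.52 around PRPF6, and their part was not tested.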

How the results depend on the processing

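With 2 or 3 lines per group and 1 library per line, small changes cannot be separated from the spread between lines. No paired analysis was possible, since each line has 1 library and the labels give no replicate numbers and no matched pairs of lines. DESeq2 called more genes at an FDR of 0.005, 32 higher in the early stage and 33 higher and 1 lower in the late stage, and it also called more of all 10452 genes (1712, 1197 and 1306 in that order, against 828, 357 and 477). It gave 2 lower in the early stage at 0.05 and 5 higher in late against early stage (2564 and 1099 of all genes). Relaxing 0.005 to 0.05 gave 38 higher in the early stage and 37 higher and 3 lower in the late stage (2357, 1698 and 1844 of all genes), and relaxing 0.05 to 0.1 gave 6 higher in late against early stage (1243 of all genes). With only the 2 groups compared in the fit, 2 genes were lower in the early stage at 0.05, 1 was higher in the late stage at 0.005, and 1 was higher and 1 lower between stages (2585, 86, 389 and 312 of all genes). A filter of 1 CPM in 2 libraries (14899 genes) and no filter (22776 genes) each left 1 gene lower in the late stage at 0.05 (2222 and 2080 of all).

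Leaving out 1 library gave, in the early stage, 2 to 15 genes higher (7 without 10 nM and 4 without 15 nM) and 0 to 1 lower at 0.005 and 21 to 38 higher and 1 to 2 lower at 0.05. In the late stage it gave 0 to 6 higher and 0 lower at 0.005 and 22 to 36 higher and 0 to 3 lower at 0.05. Between stages it gave 0 to 3 higher and 0 to 2 lower. Of all genes, the higher calls ranged from 66 to 965 and 16 to 234 at 0.005 in the early and late stage, from 1272 to 2543 and 686 to 1596 at 0.05, and from 0 to 913 between stages, and the lower calls from 142 to 1101 and 17 to 364, from 1521 to 2614 and 884 to 1762, and from 0 to 1117. A group left with 1 line was assumed to vary like the others. The medians ranged from 0.29 to 0.39 in the early stage, 0.36 to 0.48 in the late stage and 0.04 to 0.11 between stages. Of 39 genes called at 0.05 in the early stage 21 kept the call whichever library was left out, and 21 of 40 in the late stage. The highest FDR of a gene that lost it came mostly without drug naive. No called gene changed sign under any alternative run. The cause of these shifts was not tested.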
